A study of Mus musculus with 12 samples.

Results

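The ion channel genes described here are the 170 genes, of 31054 listed features, whose symbols start with Kcn, Cacn, Scn, Clcn, Trpm, Trpv or Trpc. A further 5 symbols with these starts were left out, since their suffixes mark antisense or opposite-strand transcripts. The rule used names only and no measured value. Of the 170 genes, 151 had at least 1 unique molecular identifier (UMI) in some library, 141 had 1 in the libraries of treated mice, and 19 had none anywhere. The names also caught 3 genes that encode no channel: Kcnq1ot1, a long noncoding RNA antisense to Kcnq1, Trpc4ap, a Trpc4-associated protein, and Scnm1, a splicing factor.

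The study asked how microglia-like cells (MLCs) that grow out of transplanted hematopoietic stem and progenitor cells compare with the endogenous microglia of the same brain. Wild-type C57BL/6J mice were conditioned with busulfan and dosed, intravenously (i.v.) or intracerebroventricularly (i.c.v.), with lineage-negative male bone marrow cells carrying a lentiviral GFP vector. By the methods, every recipient, whatever the route, also received untransduced bone marrow cells i.v. some days later, so that GFP- brain cells were defined by lack of GFP and not by origin. GFP+ MLCs and GFP- endogenous microglia were sorted as Cd45+, Cd11b+ and Cx3cr1+ cells from 4 treated mice, 1 female and 1 male per route, and each sort of each mouse was 1 droplet-based single-cell library. The labels give these mice an age of 22 to 28 weeks, whereas the methods state a later collection. Microglia, astrocytes, a neuron sort (Cd45-, Thy1+, Acsa2+) and blood mononuclear cells of an untreated mouse of 8 to 12 weeks gave 1 library each, without replicates. Levels are CPM, counts scaled to a fixed total per library, of the UMIs summed over the kept cells of a library. The libraries count about 1 tag at the 3′ end of each transcript, so levels of different genes are set side by side without division by length.

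Ion channels are pore proteins that let potassium, calcium, sodium or chloride ions cross a membrane. Potassium channels hold the membrane of a resting microglial cell at a negative voltage, and that voltage bears on calcium entry and process movement. Tandem-pore potassium channels leak at rest and inward rectifiers pass current best near the resting voltage, while voltage-gated and calcium-activated potassium channels open on demand. Most Clcn genes expressed by phagocytes encode exchangers of chloride and protons in endosomes and lysosomes, and the Trpm and Trpv genes encode cation channels gated by heat, calcium, swelling or oxidants. Astrocytes and oligodendrocytes take up the potassium that active neurons release, largely through inward rectifiers.

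The treated libraries held 2266 to 4555 kept cells and 4970758 to 16514669 UMIs, with a median of 842 to 1034 UMIs per cell in the GFP- libraries and of 1058 to 3499 in the GFP+ libraries. The highest median belonged to GFP+ cells of the i.v. female, which stood apart in depth. The naive libraries held 341 to 1274 cells, with a median of 425 UMIs per cell in microglia and of 3395 to 6937 in the others. EGFP, the transgene, had 183 to 460 UMIs in the GFP+ libraries and 0 to 1 in the GFP- libraries. Between pairs of libraries, 0 to 8 cell barcodes were shared. Microglial markers (8 of 8 with UMIs in every treated library) summed to 9439 to 14513 CPM in GFP- and to 4287 to 7981 CPM in GFP+ libraries, and markers of CNS-associated macrophages (7 of 7) to 501 to 1153 and 1487 to 2178 CPM. These markers moved with the sort, and their part in the differences of ion channel genes was not tested. The neuron sort went against its label: 95.5% of its 575 cells carried 3 or more oligodendrocyte markers and 0.870% 3 or more neuronal markers, with the neuronal marker Slc17a7 at 0, so it is called the neuron sort and not neurons below. The astrocyte library passed its own markers in 90.1% of cells, with oligodendrocyte markers in 7.77%.

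The promoters of the 4 ion channel genes with the largest difference between the sorts are shown because these genes moved together and most. Each is the 250 bases before a transcription start in RefSeq (GRCm38.p6), 5′ to 3′ on the strand of the gene. Capitals mark GAGGAA or its reverse complement, the core letters to which the macrophage factor PU.1 is known to bind. By the gene spans given below, from another annotation, the windows of Kcnj12, Kcnma1 and Kcna7 lie inside the gene. Only that of Kcnk12 lies just before the start of its gene. Which start these cells use was not tested.
Kcnj12, chr11:61065554-61065803, plus strand: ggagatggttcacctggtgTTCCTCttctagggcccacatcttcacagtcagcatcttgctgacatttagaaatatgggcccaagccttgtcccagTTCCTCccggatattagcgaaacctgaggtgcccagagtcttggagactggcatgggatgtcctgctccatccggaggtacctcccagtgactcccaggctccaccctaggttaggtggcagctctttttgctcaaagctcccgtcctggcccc
Kcnk12, chr17:87797995-87798244, minus strand: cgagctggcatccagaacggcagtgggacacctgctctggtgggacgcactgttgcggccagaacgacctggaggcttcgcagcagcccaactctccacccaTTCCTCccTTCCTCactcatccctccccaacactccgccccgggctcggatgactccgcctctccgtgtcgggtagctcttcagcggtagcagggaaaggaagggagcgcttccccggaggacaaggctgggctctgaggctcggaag
Kcnma1, chr14:24004206-24004455, minus strand: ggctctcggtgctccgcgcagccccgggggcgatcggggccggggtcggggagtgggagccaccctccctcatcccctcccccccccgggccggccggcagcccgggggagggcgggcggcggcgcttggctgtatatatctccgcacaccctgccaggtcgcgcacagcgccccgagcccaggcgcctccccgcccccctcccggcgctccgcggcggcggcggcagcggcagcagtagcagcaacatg
Kcna7, chr7:45405710-45405959, plus strand: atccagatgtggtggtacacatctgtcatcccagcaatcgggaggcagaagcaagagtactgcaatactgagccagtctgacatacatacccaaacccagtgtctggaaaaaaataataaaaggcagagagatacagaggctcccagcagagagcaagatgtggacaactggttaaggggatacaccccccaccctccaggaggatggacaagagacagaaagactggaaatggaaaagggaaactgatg
Kcnj12 and Kcnk12 each held 2 matches, and Kcnma1 and Kcna7 held none. Of the 18 ion channel genes called lower in MLCs below, 13 had a promoter window, and Cacna1a, Kcnk6, Kcnd1 and Trpm4 were among those without. Of 4 higher genes with a window, 2 (50%) held GAGGAA. Of the 13 lower genes, 6 (46.2%) held it in some window, against 13 of 32 tested ion channel genes (40.6%) and 25.9% of all 27025 genes. The longer GAGGAAGT, which contains GAGGAA, was in 1 of the 13 and in 2.79% of all genes, and TATAAA was in 0 of the 13 and in 14.3% of all genes. Both strands were searched, and a match is a description of letters and not of binding.

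Between the sorts, more ion channel genes were called lower than higher in MLCs. Of the 40 that passed the filter on low counts, 18 fell and 5 rose in GFP+ MLCs, and 17 did not pass the test (adjusted p under 0.05, edgeR quasi-likelihood test, 4 against 4 libraries). The background among the 11756 genes tested was 15.9% lower and 16.6% higher, beside 45% and 12.5% of these 40. The median log2 fold change was -0.46 over the 40 genes and 0.01 over all genes, and 72.5% of the 40 against 49.0% of all genes had a negative estimate. The filter left 130 ion channel genes untested, none of which exceeded 5.09 CPM in a treated library. In CPM, all 4 GFP+ libraries lay below all 4 GFP- libraries for 25 of the 40 genes, where 32.6% of all genes did so, and above them for 2 of the 40, where 6.29% of all genes did so. Fold changes come from the fit with edgeR's TMM scaling. Scaling by library totals, as CPM does, moved the median gene by -0.28 on the log2 scale, so a fall looks larger, and a rise smaller, in CPM than in the fold changes given here. Which scaling is nearer to the cells was not tested. With scaling by library totals, 27 of the 40 ion channel genes fell and 2 rose, beside 3803 lower and 770 higher of all 11756 genes. In summed libraries, fewer cells that express a gene and less RNA per cell cannot be told apart. Shares of cells with a UMI of a gene are not compared here.

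**Figure D1:**
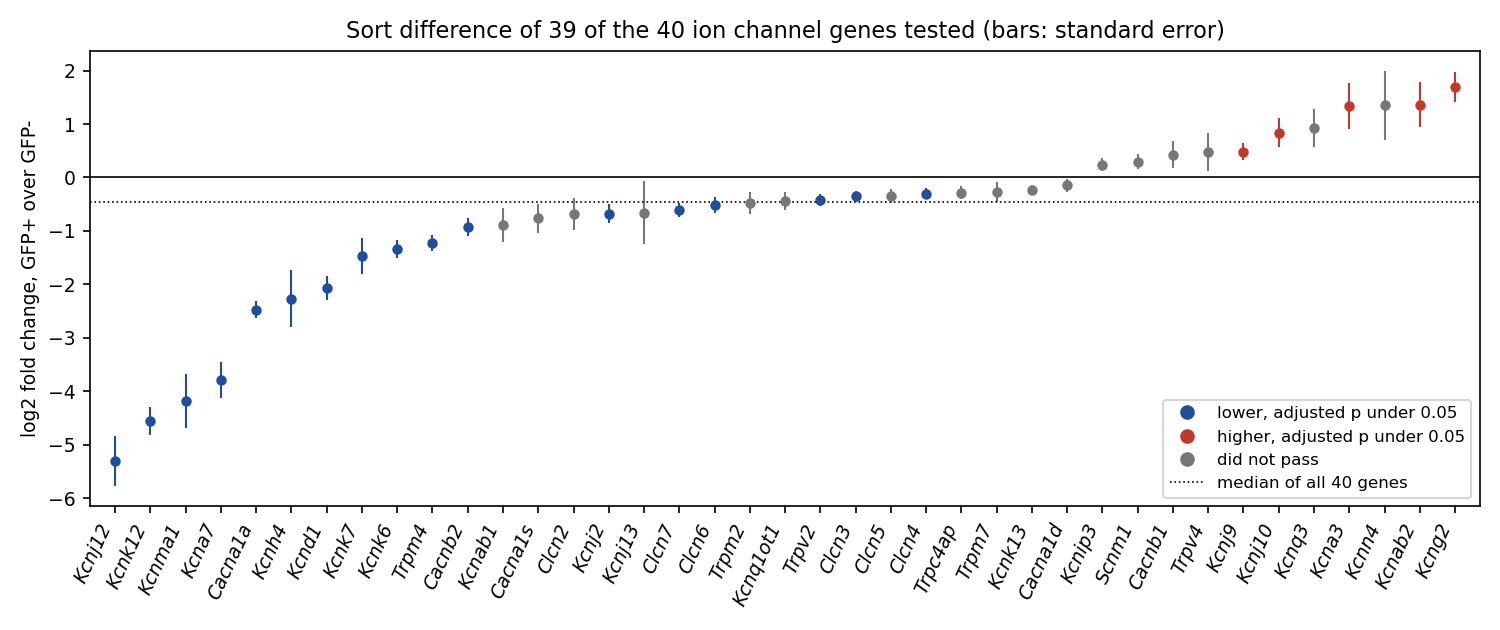
Log2 fold change (GFP+ over GFP-, TMM scaling) of 39 of the 40 ion channel genes tested, with the standard error as bars, in order of size. The 4 genes at the left lie between -5.31 and -3.79, far below the dotted median of -0.46, while the 5 higher genes reach at most 1.70.

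The falls were steepest among potassium channels, and 4 of them were close to absent from MLCs. Kcnj12 (chr11:61022564-61071131, GRCm38), which encodes a strong inward rectifier, had 11.7, 12.4, 7.40 and 12.6 CPM in the GFP- libraries of the i.v. female, i.v. male, i.c.v. female and i.c.v. male. In the GFP+ libraries of the same mice, in the same order as all values below, it had 0.303, 0, 0.453 and 0.0917 CPM, which rest on 10 UMIs in all. The groups were far apart in every mouse, and the difference was -5.31 on the log2 scale (standard error 0.46, adjusted p = 0.000230). Kcnk12 (chr17:87745801-87797994), a tandem-pore subunit that carries little current by itself, had 30.8, 34.6, 17.8 and 25.3 CPM in GFP- microglia. Its levels in GFP+ MLCs were 1.09, 0.507, 1.13 and 0.917 CPM. This 23.6-fold difference (log2 -4.56, standard error 0.25, adjusted p = 4.53e-05) had the smallest adjusted p of all ion channel genes tested. Naive microglia, with 5.06 CPM of Kcnj12 and 24.3 CPM of Kcnk12, lay above every GFP+ library for both genes. Only for Kcnj12 was their value below the GFP- libraries. That value rests on 5 UMIs, and its 95% exact Poisson interval, 1.64 to 11.8 CPM, overlaps the GFP- range.

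Kcnma1 (chr14:23289431-24014491), the large-conductance channel opened by calcium and voltage together, had 10.9, 4.75, 4.19 and 4.37 CPM in GFP- microglia. GFP+ MLCs had 0.424, 0.304, 0.113 and 0.0917 CPM. The i.v. female stood out among the GFP- libraries, yet the lowest GFP- value was still well above the highest GFP+ value (log2 -4.19, standard error 0.51, adjusted p = 0.000889). Kcna7 (chr7:45405653-45409763), a voltage-gated channel of the Shaker family, went from 5.23, 7.82, 3.82 and 7.84 CPM to 0.242, 0.405, 0.340 and 0.459 CPM. The log2 fold change was -3.79 (standard error 0.34, adjusted p = 0.000244). Naive blood held no UMI of Kcnj12, Kcnma1 or Kcna7, which by a limit of 3 UMIs allows up to 1.14 CPM each, and 1 UMI of Kcnk12.

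Other potassium channels fell by less and stayed measurable in MLCs. Kcnk6, a tandem-pore channel known for potassium efflux in macrophages, was the most abundant of the called potassium channels. It had 90.3, 111, 77.2 and 76.0 CPM in GFP- and 23.6, 22.1, 40.9 and 29.3 CPM in GFP+ libraries, a 2.53-fold fall (log2 -1.34, standard error 0.17, adjusted p = 0.00108). The groups did not overlap, naive microglia (107 CPM) lay among the GFP- libraries, and naive blood (16.7 CPM) lay below all of the GFP+ libraries. Kcnd1, a voltage-gated channel of fast inactivating currents, had 12.6 to 24.8 CPM in GFP- and 2.63 to 4.03 CPM in GFP+ libraries (log2 -2.07, adjusted p = 0.000540). Kcnh4, a relative of the ether-a-go-go channels, and Kcnk7, a tandem-pore subunit with no known current, were called too, from at most 3.21 and 2.01 CPM. Kcnj2, an inward rectifier, had 31.2 to 35.5 CPM in GFP- and 11.7 to 21.6 CPM in GFP+ libraries (log2 -0.68, adjusted p = 0.0211). Its call was lost without GFP+ cells of the i.v. male (adjusted p = 0.0537). Kcnk13, the tandem-pore channel that keeps surveying microglia hyperpolarized, did not pass the test. Its levels were 51.7 to 58.5 CPM in GFP- and 32.3 to 42.3 CPM in GFP+ libraries, a difference of -0.23 on the log2 scale (standard error 0.09, adjusted p = 0.0673). Thus of the 4 tandem-pore genes tested, 3 fell, and the 2 most abundant in GFP- microglia, Kcnk6 and Kcnk13, had fold changes of -1.34 and -0.23 on the log2 scale.

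**Figure D2:**
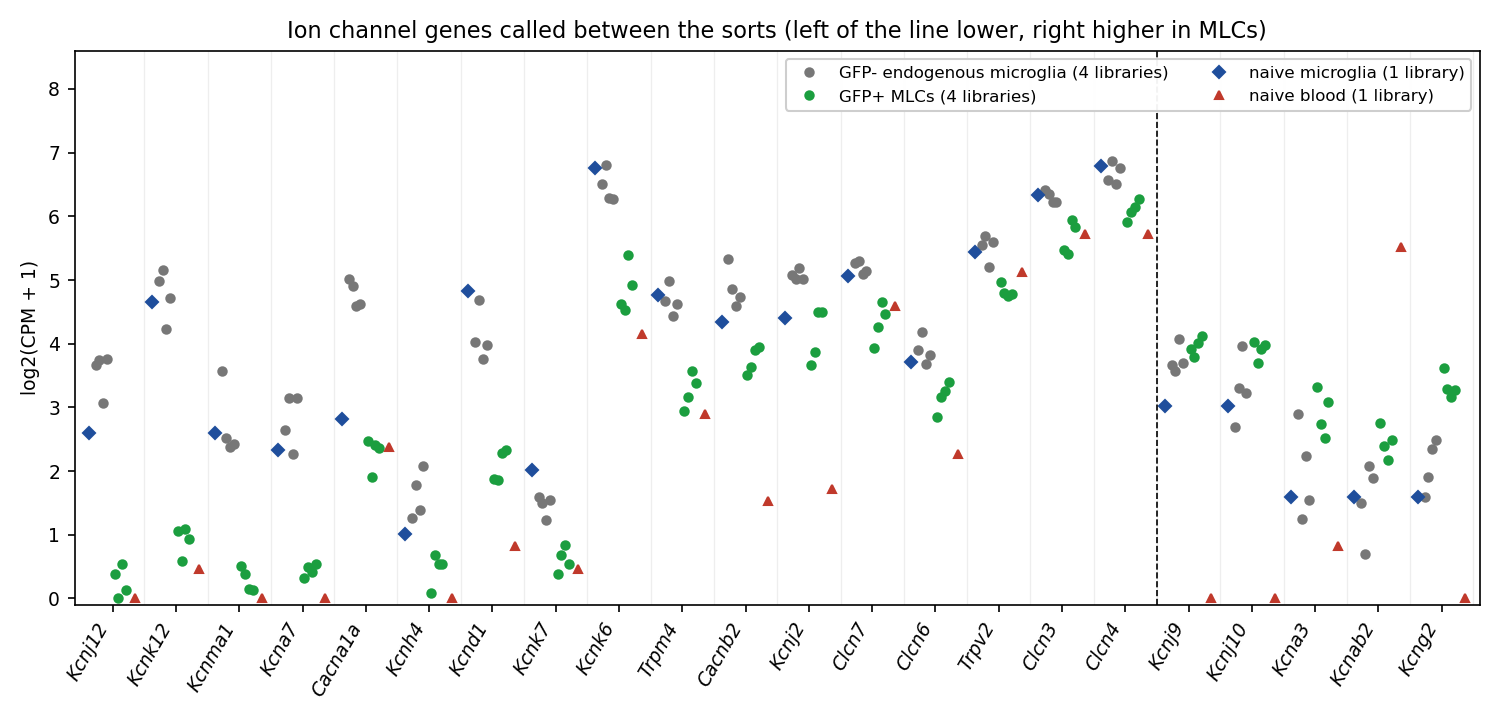
Levels of 22 of the 23 called ion channel genes as log2(CPM + 1) in the 4 GFP- and 4 GFP+ libraries and in naive microglia and naive blood. For the 17 genes left of the dashed line no GFP+ point reaches a GFP- point, while right of it only Kcnab2 and Kcng2 separate the groups fully. The genes drawn were called from these same libraries, so such separation is in part built in. In CPM, the GFP+ libraries lie wholly lower for 32.6% of all 11756 genes tested and wholly higher for 6.29%.

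The potassium channel genes that rose in MLCs were few and of low level. Kcng2, a silent subunit that modifies other voltage-gated channels, had 2.01, 2.76, 4.07 and 4.63 CPM in GFP- libraries. In GFP+ MLCs it had 11.3, 8.82, 7.92 and 8.62 CPM, so the groups did not overlap (log2 1.70, standard error 0.27, adjusted p = 0.00305). Naive microglia had 2.02 CPM, and naive blood had no UMI (up to 1.14 CPM by the limit of 3 UMIs). Kcng2 was the only rise that held when any 1 library was left out. Kcnab2, an accessory beta subunit, had 0.613 to 3.21 CPM in GFP- and 3.51 to 5.75 CPM in GFP+ libraries (log2 1.36, adjusted p = 0.0333), and 44.9 CPM in naive blood. Kcna3, the voltage-gated channel of activated microglia and lymphocytes, had 6.44, 1.38, 3.70 and 1.93 CPM in GFP- and 9.02, 5.67, 4.75 and 7.52 CPM in GFP+ libraries. Its groups overlapped across mice although the GFP+ library was the higher one within each mouse (log2 1.34, standard error 0.43, adjusted p = 0.0407). Kcnj10, the inward rectifier of glial potassium uptake, and Kcnj9, a G protein-gated inward rectifier, were called as well. Kcnj10 had 5.43 to 14.7 CPM in GFP- and 12.0 to 15.3 CPM in GFP+ libraries (log2 0.84, adjusted p = 0.0408), and Kcnj9 had 10.9 to 15.8 and 12.9 to 16.4 CPM (log2 0.49, adjusted p = 0.0438). Both are neighbors on chromosome 1, and both calls were lost in 7 of the 8 fits that leave out 1 library. Kcna3 was lost in 6 of these fits and Kcnab2 in 5. With the mouse as a block, 3 ion channel genes rose in place of 5, beside 1605 of all genes in place of 1951. The calls of Kcnj9, Kcnj10 and Kcnab2 were lost, while Trpv4 gained one (adjusted p = 0.0404).

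Since Kcnj10 belongs to astrocytes and oligodendrocytes, the cells that carried markers of such types were counted. Cells in which 3 or more markers of a neural, endothelial or choroid list had UMIs held 1.75% to 2.56% of the UMIs of the GFP- libraries and 1.36% to 2.95% of those of the GFP+ libraries. They held 0% to 22.4% of the Kcnj10 UMIs in GFP- and 1.60% to 7.14% in GFP+ libraries. The astrocyte list (8 of 8 markers with UMIs in every treated library) summed to 114 to 156 CPM in GFP- and to 26.8 to 63.2 CPM in GFP+ libraries. Of all ion channel UMIs, these cells held at most 2.54% in a GFP- and at most 5.03% in a GFP+ library. With the cells of neural, endothelial, choroid, neutrophil and lymphoid markers left out, 20 of 39 ion channel genes fell and 4 rose. Over all 11557 genes in that fit, 2021 fell and 1979 rose. Kcnj10 was still called (adjusted p = 0.0124), while Kcnj9 was not (adjusted p = 0.0509).

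Of the 5 voltage-gated calcium channel genes tested, 2 fell and 3 did not pass. Cacna1a (chr8:84388440-84640246), the pore of the P/Q-type channel best known from synapses, had 31.4, 29.1, 23.2 and 23.7 CPM in GFP- microglia. It had 4.54, 2.74, 4.30 and 4.13 CPM in GFP+ MLCs, a 5.55-fold fall (log2 -2.47, standard error 0.16, adjusted p = 9.40e-05). Naive microglia, at 6.07 CPM from 6 UMIs, lay far below all GFP- libraries. Their 95% exact Poisson interval, 2.23 to 13.2 CPM, covers the whole range of the GFP+ libraries, so they cannot be set apart from the MLCs. Naive blood had 4.18 CPM, inside the range of the MLCs. Cacnb2, an accessory beta subunit that brings such pores to the membrane, had 23.1 to 39.4 CPM in GFP- and 10.4 to 14.4 CPM in GFP+ libraries (log2 -0.93, standard error 0.16, adjusted p = 0.00408). The L-type pore gene Cacna1d was the most abundant calcium channel pore in both sorts and did not pass, with 44.7 to 70.5 CPM in GFP- and 35.5 to 46.9 CPM in GFP+ libraries (log2 -0.15, standard error 0.13, adjusted p = 0.399). The others that did not pass were the beta subunit gene Cacnb1 (log2 0.42, adjusted p = 0.224) and Cacna1s, the pore of the skeletal muscle L-type channel (log2 -0.76, adjusted p = 0.0581), which is named only to complete this count. None of the 10 sodium channel pore genes had enough UMIs to be tested, and together they summed to at most 0.643 CPM in a treated library.

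All 4 called chloride genes fell, by small factors. Clcn7, the lysosomal exchanger that works with the protein of Ostm1, had 33.2 to 38.3 CPM in GFP- and 14.3 to 24.1 CPM in GFP+ libraries (log2 -0.61, standard error 0.13, adjusted p = 0.00847). Ostm1 itself, which is not one of the 170 genes, did not pass (log2 -0.01, adjusted p = 0.965). Clcn6, Clcn3 and Clcn4, exchangers of endosomes, changed by -0.51, -0.35 and -0.30 on the log2 scale (adjusted p = 0.0308, 0.0340 and 0.04998). Each of the 3 calls was lost in 5 or 6 of the 8 fits that leave out 1 library, and Clcn3 also with the mouse as a block (adjusted p = 0.0559). Clcn5, another endosomal exchanger, and Clcn2, a channel of the surface membrane, did not pass (log2 -0.35 and -0.69, adjusted p = 0.0789 and 0.111). All 6 chloride genes tested had negative estimates, and their groups did not overlap in CPM, where 32.6% of all genes lay the same way. With TMM scaling the groups overlapped for Clcn5, which was lower in 3 of 4 mice.

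Among the Trpm and Trpv genes, Trpm4, a cation channel opened by calcium, changed most. It had 24.5, 30.6, 20.6 and 23.7 CPM in GFP- and 6.66, 8.00, 10.9 and 9.45 CPM in GFP+ libraries, a 2.35-fold fall without overlap (log2 -1.23, standard error 0.15, adjusted p = 0.000889). Trpv2, a channel of macrophage phagocytosis, had 35.9 to 50.4 and 25.8 to 30.4 CPM (log2 -0.42, adjusted p = 0.0220), and its call was lost in 3 fits, without GFP- cells of either male or without GFP+ cells of the i.c.v. male. Trpm7, a channel fused to a kinase, and Trpm2, a channel gated by ADP-ribose under oxidative stress, were among the most abundant ion channel genes of both sorts and did not pass. Trpm7 had 113 to 162 CPM in GFP- and 58.6 to 118 CPM in GFP+ libraries (log2 -0.27, adjusted p = 0.302), and Trpm2 had 83.7 to 119 and 36.9 to 87.6 CPM (log2 -0.48, adjusted p = 0.106). The osmotic sensor Trpv4 did not pass either (log2 0.48, adjusted p = 0.329). No Trpc gene had enough UMIs to be tested. Of the 3 genes that encode no channel, none was called, and Kcnq1ot1, the most abundant of all 170 in both sorts, had 203 to 272 CPM in GFP- and 98.2 to 190 CPM in GFP+ libraries (log2 -0.45, adjusted p = 0.0654).

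The called genes were also read in the naive libraries. The choice of the genes by their difference between the sorts bears on these placings, so they are descriptions given beside the share of all called genes. Naive microglia lay above the highest GFP+ library for 17 of the 18 lower genes (83.3% of all 1869 lower genes), within the range of the GFP- libraries for 10 (41.5%) and below it for 6. For all 5 higher genes they lay below the lowest GFP+ library (50.8% of all 1951 higher genes). Naive blood lay at or below the highest GFP+ library for 17 of the 18 lower genes (72.3%). These naive values come from 1 younger, unconditioned mouse and rest on 987965 UMIs for microglia, and no test was made. The placings ignore counting error, which is wide for genes with few UMIs in naive microglia, such as Kcnj12 and Cacna1a. A list of 44 other channels and partners outside the name rule was tested in the same fit. Of 32 tested, 9 fell, 4 rose and 19 did not pass, beside the 15.9% and 16.6% of all genes given above, and the median log2 fold change was -0.11. The falls included Itpr3 (log2 -1.69) and Itpr2 (log2 -0.89), calcium release channels of the endoplasmic reticulum, Orai2 (log2 -1.36), a store-operated calcium channel subunit, and Piezo1 (log2 -0.92), a channel opened by stretch, with adjusted p from 0.000860 to 0.00684 for Itpr3, Itpr2 and Piezo1 and 0.000465 for Orai2. Itpr1 did not pass (log2 0.22, adjusted p = 0.648). The rises included Orai3, a sister subunit of Orai2 (log2 0.33, adjusted p = 0.0492), and Lrrc8c (log2 1.74, adjusted p = 0.0294), a subunit of the volume-regulated anion channel whose partner Lrrc8a fell (log2 -0.86, adjusted p = 0.00280).

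Summed over all 170 genes, GFP- libraries held 1560, 1649, 1367 and 1437 CPM and GFP+ libraries 778, 858, 1085 and 970 CPM, without overlap. Naive microglia held 1232 CPM, the neuron sort 2076, astrocytes 2790 and blood 703. The 3 genes that encode no channel made up 345 to 419 CPM of the GFP- and 193 to 303 CPM of the GFP+ sums. Without these 3 genes, the mean sum was 1121 CPM in GFP- and 674 CPM in GFP+ libraries, still without overlap. The tandem-pore potassium genes summed to 150 to 209 CPM in GFP- and 57.9 to 85.8 CPM in GFP+ libraries, and the chloride genes to 237 to 286 and 139 to 188 CPM. Potassium channel accessory genes were alike in sum, with 27.7 to 30.7 CPM in GFP- and 25.2 to 33.9 CPM in GFP+ libraries. Such sums weigh abundant genes most.

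**Figure D3:**
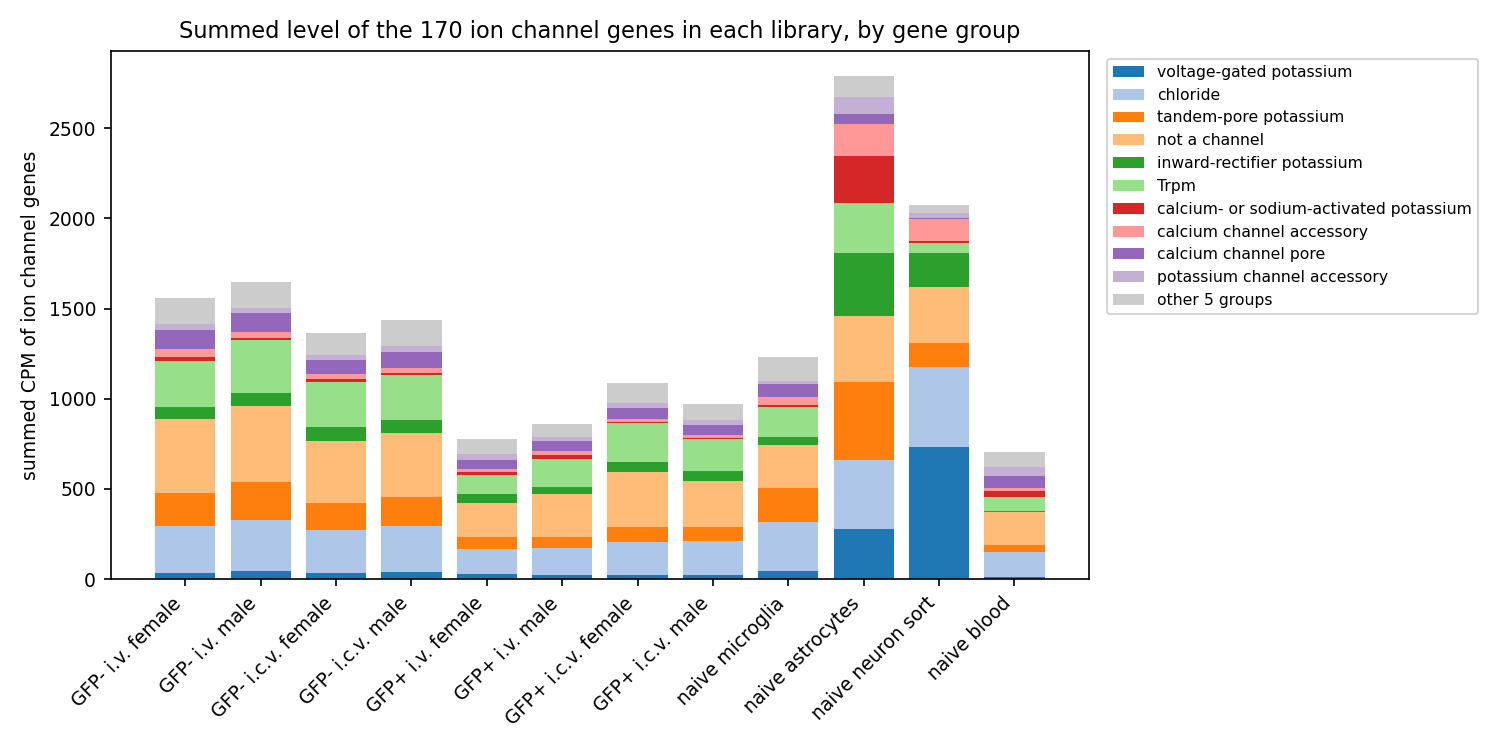
Summed CPM of the 170 ion channel genes, with the 3 that encode no channel, in each of the 12 libraries, stacked by gene group (linear axis from 0). The 4 GFP+ bars end between 778 and 1085 CPM, below the 4 GFP- bars (1367 to 1649 CPM), and the voltage-gated potassium genes make up 734 CPM of the neuron sort.

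Routes were compared within each sort, with 2 libraries per route and a spread shared by all 8 libraries. In MLCs, 2 of the 51 ion channel genes tested were higher after i.v. dosing and 0 were lower, beside a background of 2.56% and 0.215% of 12540 genes. Kcnn4, the intermediate-conductance calcium-activated potassium channel of macrophages and lymphocytes, had 14.2 and 23.3 CPM in the i.v. and 2.60 and 4.95 CPM in the i.c.v. MLCs of the female and the male. Both i.v. libraries lay above both i.c.v. libraries (log2 2.38, standard error 0.44, adjusted p = 0.0277), whereas the GFP- libraries held 6.24, 3.22, 7.90 and 4.63 CPM. Markers of monocytes, neutrophils and T or NK cells were higher after i.v. dosing in the same GFP+ libraries. Those of B cells were not. The monocyte list (6 of 6 markers with UMIs after i.v. and 3 or 4 of 6 after i.c.v. dosing, with Plac8 and Chil3 at 0 in both i.c.v. libraries) summed to 273 and 174 CPM after i.v. and to 2.38 and 3.21 CPM after i.c.v. dosing. The neutrophil list (7 of 7, and 2 or 3 of 7 with S100a8 and S100a9 at 0) summed to 1500 and 2828 CPM and to 112 and 113 CPM. The T or NK list summed to 8.84 and 10.2 CPM and to 0.340 and 0.275 CPM, and the B cell list to 181 and 165 CPM and to 190 and 190 CPM. In the GFP- libraries the neutrophil list went the other way, with 511 and 339 CPM after i.v. and 4954.5 and 928 CPM after i.c.v. dosing. With cells of neutrophil, lymphoid and neural markers left out, Kcnn4 was still called (log2 2.38, adjusted p = 0.0225), while cells with monocyte markers, 24 and 12 in the i.v. and 0 in the i.c.v. libraries, stayed in, and their part was not tested. Cacnb3, a calcium channel beta subunit, had 2.30 and 4.05 CPM after i.v. and 0.226 and 0.367 CPM after i.c.v. dosing (log2 3.42, standard error 0.62, adjusted p = 0.0261), and 16.2 CPM in naive microglia (95% exact Poisson interval 9.26 to 26.3). With the GFP+ libraries fitted alone, neither was called (adjusted p = 0.0504 and 0.0520). The calls were also lost when 1 library was left out, that of Kcnn4 without GFP+ cells of the i.v. male or of either i.c.v. mouse, and that of Cacnb3 without any of those 3 or without either i.c.v. GFP- library. In GFP- microglia, 0 of 51 ion channel genes and 0% of all genes were called between routes, while 4 of the 51 and 1063 of all genes had an unadjusted p under 0.05, and DESeq2 called 0 of the 51, with 1 gene higher and 69 lower over all genes.

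Whether the sort difference itself depended on route was tested as an interaction. No ion channel gene was called by edgeR, beside 1.91% of all genes. Of the 51, 10 had an unadjusted p under 0.05, beside 2237 of all 12540 genes. DESeq2 called 1, Kcnn4 (adjusted p = 0.00109), beside 547 higher and 51 lower over all genes. For Kcnn4 the interaction was 2.94 on the log2 scale (standard error 0.66, adjusted p = 0.0685). Its sort difference, which did not pass over all mice (log2 1.35, adjusted p = 0.132), was called in the i.v.-dosed mice alone (adjusted p = 0.00759), and after i.c.v. dosing alone the estimate was -0.54 (adjusted p = 0.451). In naive blood, Kcnn4 stood at 29.3 CPM, with 43 of its 77 UMIs in 109 cells that passed for B cells alone and 9 in 69 that passed for monocytes alone, among the lists of monocytes, B cells, neutrophils and T or NK cells.

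**Figure D4:**
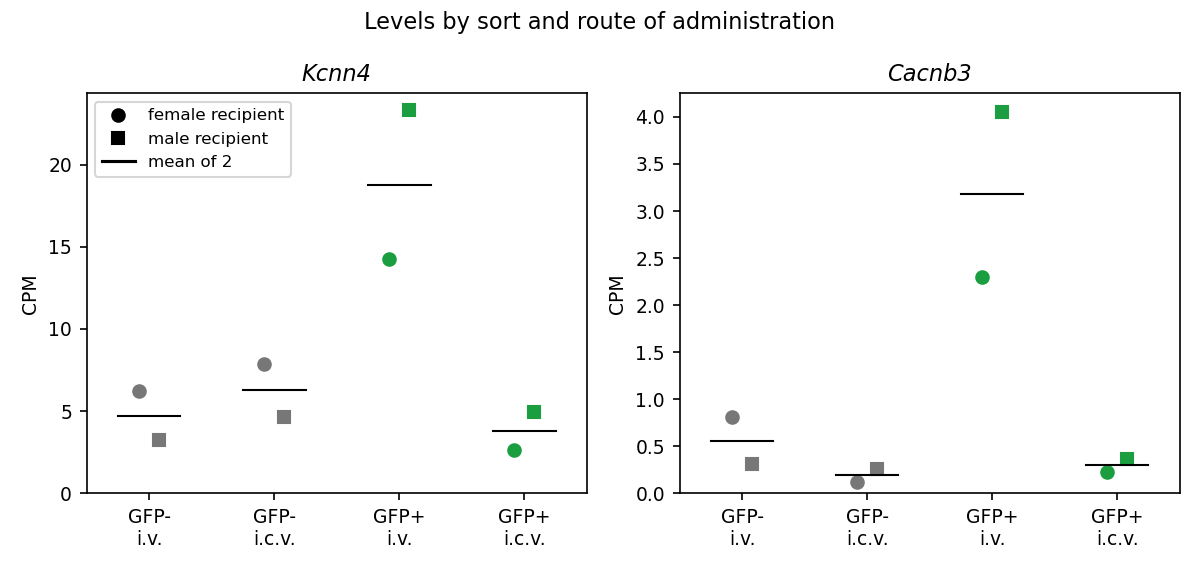
CPM of Kcnn4 and Cacnb3 in each treated library by sort and route (linear axes from 0, circles for female and squares for male recipients, lines for the mean of 2). For both genes the 2 i.v. GFP+ libraries lie above every other treated library.

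Some ion channel genes were far higher in 1 naive library than in all others. The rule asked for at least 20 CPM and at least 4 times every other naive library and both treated means. The GFP- mean is of microglia too, so naive microglia could hardly pass, and a count of 0 for them says little. Kcnk6, with 107 CPM in naive microglia and at most 16.7 CPM in the other naive libraries, did not pass because of this mean. By this rule, 11 ion channel genes were highest in astrocytes, 3 in the neuron sort, 2 in blood and 0 in microglia. In astrocytes these were led by Kcnk1, a tandem-pore channel, with 327 CPM (95% exact Poisson interval 311 to 344), and Kcnn2, a small-conductance calcium-activated channel, with 172 CPM (160 to 184). Trpm3, a channel gated by heat and neurosteroids, Kcnj8, a pore of ATP-sensitive channels, and Kcnj16, the partner of Kcnj10, had 104, 97.0 and 76.0 CPM there. In the treated libraries, none of these 5 genes exceeded 3.69 CPM. Intervals of the naive libraries cover counting error only.

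The neuron sort, whose cells carried oligodendrocyte markers, was led by Kcna1, a voltage-gated channel of myelinated axons, with 464 CPM (442 to 486) and 45.2 CPM in astrocytes. Kcna6, of the same family, followed with 86.1 CPM and Cacnb4, a calcium channel beta subunit, with 71.3 CPM. Kcnj10 had 158 CPM in astrocytes (147 to 170) and 172 CPM in the neuron sort (159 to 186), intervals that overlap. Blood had 0 UMIs (up to 1.14 CPM by the limit of 3 UMIs). Kcnk13, described above as a channel of microglia, had 124 CPM in the neuron sort (113 to 136) and 54.7 CPM in naive microglia (41.1 to 71.3), and these intervals do not overlap.

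Blood was highest for Kcnab2 (44.9 CPM, 37.1 to 53.7) and Cacna1e, the pore of the R-type calcium channel (34.6 CPM, 27.8 to 42.5). Of the 91 Cacna1e UMIs, 87 lay in the 109 cells that passed for B cells alone and 0 in the 69 that passed for monocytes alone, whereas Kcnab2 had 25 UMIs in the former and 23 in the latter. In the treated libraries Cacna1e reached 5.09 CPM in 1 GFP+ library, that of the i.c.v. female, and 0.203 to 0.734 CPM in the other GFP+ libraries.

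**Figure D5:**
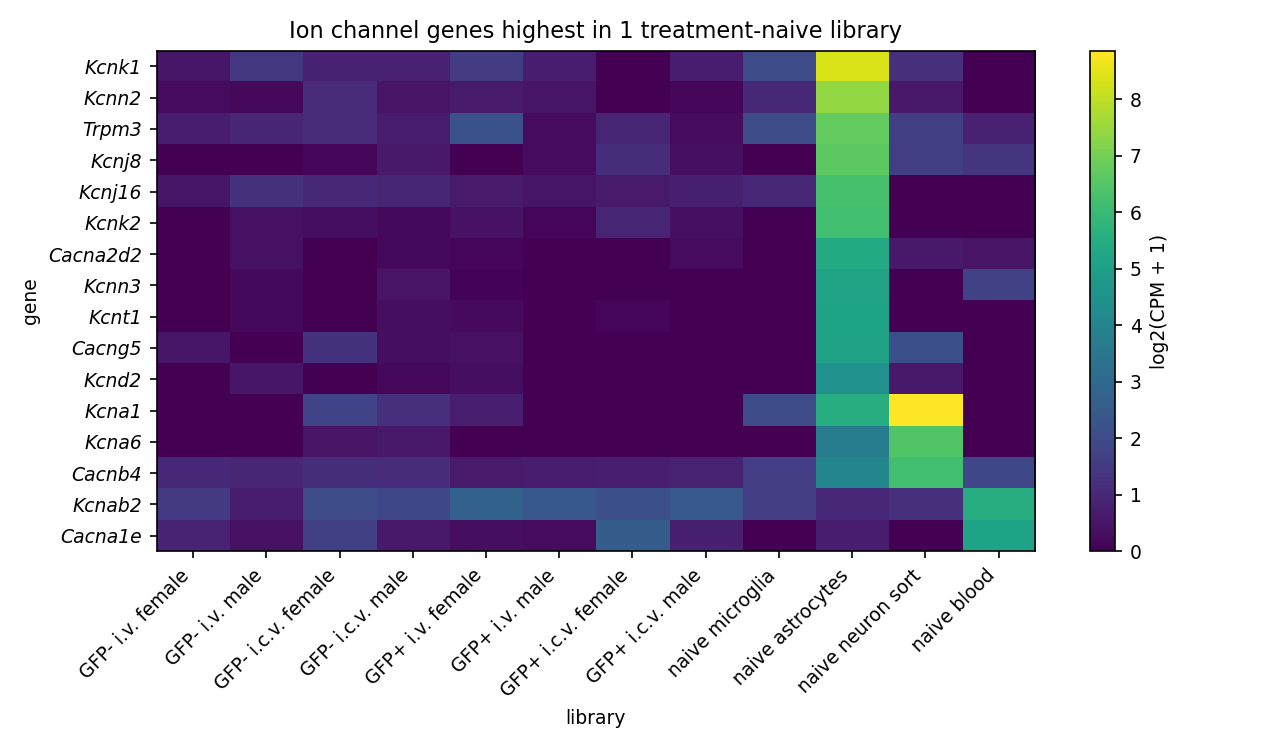
Levels, as log2(CPM + 1), of the 16 ion channel genes that were highest in 1 naive library, across all 12 libraries. The 11 astrocyte genes and the 3 genes of the neuron sort stay at or below 3.69 CPM in all 8 treated libraries. Of the blood genes, Kcnab2 is seen at low levels in both sorts, and Cacna1e reaches 5.09 CPM in 1 GFP+ library.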

How the data were processed

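The authors sorted the cells, made droplet-based 3′ libraries and counted them with Cell Ranger 3.1.0 on mm10, per the submitters' processing notes. The deposited values are raw counts of UMIs, not normalized, for each gene in each barcode. The treatment-naive tables list 31053 features and no EGFP.

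Barcodes were kept if they had 200 or more genes and no more than 10% mitochondrial UMIs (84.5% to 93.9% per treated library, 13.6% to 51.0% per naive library), 30775 cells in all. Doublets were not removed. UMIs were summed per library, and the 12 libraries were the units. Levels are CPM of library totals. Sorts (4 against 4), routes (2 against 2, in 1 fit to 8 libraries) and their interaction were tested on all genes passing filterByExpr with edgeR 4.0.16 (TMM, two-sided quasi-likelihood F test, R 4.3.3) and Benjamini-Hochberg adjustment over all genes tested, with calls made under 0.05. The test was checked on simulated data. DESeq2 1.42.0 was an alternative. The remaining steps used pandas 2.3.3, scipy 1.17.1 and numpy 2.4.6 under Python 3.11.15, and a seed of 1. Positions are those of a GENCODE annotation of GRCm38, by Ensembl identifier, and no named ion channel gene shares its strand and place with another annotated gene. A cell was counted to a type if 3 or more markers of its list had UMIs (13 lists), and blood cells to a class only if they passed 1 of the 4 blood lists.

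Ion channel genes are named if called in a contrast, if among the 5 highest in a sort or a naive library, if highest in a naive library (at most 5 per library), or if on a list of 29 channels studied in microglia, macrophages or glia; other channels come from a list of 44. The members, lists, tests and alternatives were chosen with earlier results of these data known. GFP+ and GFP- libraries of 1 mouse are pairs, since the labels give their mouse number. Their deviations from the group means correlated by 0.205, -0.275, -0.331 and 0.0130, and the fit with the mouse as a block was an alternative. The other alternatives were all deposited barcodes, a filter of 500 genes and 5% mitochondrial UMIs, no filter on low counts, upper-quartile scaling, library totals (added after seeing the data), 1 route or 1 sort alone, each library left out, cells with markers of other types left out, and summed counts drawn down to 4970758 UMIs. Results for 1 gene are counted in the totals and not reported here by name.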

Additional observations from a re-analysis of the deposited data

Results flagged for a closer look

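In 4 of 94 groups of 4 libraries, over the named ion channel genes and both sorts, 1 library lay far from the other 3 by Dixon's criterion, which chance meets in about 1 of 20 groups. Kcnma1 had 10.9 CPM in GFP- cells of the i.v. female, against 4.19 to 4.75 CPM in the other GFP- libraries. Cacna1e had 5.09 CPM in GFP+ cells of the i.c.v. female, against 0.203 to 0.734 CPM in the other GFP+ libraries. Kcna1 had 0.666 CPM in GFP+ cells of the i.v. female and Scn7a, a sodium sensor, 0.201 CPM in GFP- cells of the i.v. female, with 0 in the other 3 libraries of each group. With 0 in 3 libraries, any value above 0 in the remaining one meets the criterion. The flags of Kcna1 and Scn7a thus follow from their zeros, and the rate of 1 in 20 does not apply to them.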

How the results depend on the processing

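The count of 18 lower ion channel genes (of 40, beside 1869 of all 11756 genes) stayed within 1.5 times under every alternative except a fit to i.c.v. mice only. There it was 10 of 45, beside 748 of all 11861 genes. With library totals it was 27, beside 3803 of all 11756 genes. It ranged from 14 to 20 when 1 library was left out, while lower calls over all genes ranged from 1199 to 1857. The count of 5 higher genes was 3 with all deposited barcodes, 3 with summed counts drawn down to the smallest library, 2 with library totals, 1 with i.c.v. mice only, and 1 to 5 when 1 library was left out. It fell to 3 without either library of the i.v. female, to 2 and 1 without the GFP- and GFP+ library of the i.v. male, and to 1 without either library of the i.c.v. male. Higher calls over all genes were 1951 in the main fit, 1776 with all deposited barcodes and 1579 with counts drawn down. They were 770 with library totals, 283 with i.c.v. mice only, and 978 to 1956 when 1 library was left out. With the replicate block (mouse), 17 ion channel genes were lower and 3 higher, beside 1612 and 1605 of all genes. The block changed the calls of Kcnj9, Kcnj10, Kcnab2, Clcn3 and Trpv4 and of no other ion channel gene tested, and it left the interaction at 0. The 2 genes called between routes in MLCs became 4 without the filter on low counts, 1 with the GFP+ libraries alone (Kcne3, an accessory subunit named after its values were seen), and 0 to 3 when 1 library was left out (0 without GFP+ cells of the i.v. male or of either i.c.v. mouse). Over all genes, 321 were higher and 27 lower after i.v. dosing in the main fit, 577 and 102 without the filter, and 226 and 7 with the GFP+ libraries alone. The interaction called 1 ion channel gene by DESeq2, beside 547 higher and 51 lower over all genes. It called 2 without the filter, beside 636 and 62.

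Estimates changed sign for Kcnip3, a calcium-binding channel partner, with library totals (log2 -0.037) and, with i.c.v. mice only, for Kcnn4 (-0.54) and Cacna1d (0.084), none of which was called between the sorts. The summed level in MLCs (923 CPM) was 1077 CPM with TMM sizes over all 12 libraries. The neuron sort had 2001, 2227 and 1902 CPM with all barcodes, the strict filter and TMM sizes. The strict filter left only 23 cells in the neuron sort, 142 in naive microglia and 167 in blood. Astrocytes had 2693 and 2220 CPM with all barcodes and TMM sizes, naive microglia 1103 and 1064 CPM with the strict filter and TMM sizes, and blood 626 and 635 CPM with all barcodes and the strict filter. Apart from construction (fewer mice, genes or UMIs), the cause of these shifts was not tested. The filter on low counts left 130 of 170 genes untested between the sorts, at this depth, and the naive libraries have no replicates. The labels do not say how the mice were batched.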
